A study of Homo sapiens with 9 samples.

Results

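CD2AP, its paralog SH3KBP1, the coronins CORO1B and CORO1C, the capping protein subunits CAPZA1, CAPZA2 and CAPZB, and cortactin (CTTN) were read on every Affymetrix probe set that names 1 of these 8 genes alone. They had 29 of the 49395 probe sets of the table, and each probe set is described apart. RNA of HCCC-9810, a human cholangiocarcinoma (bile duct cancer) line, was measured on 9 arrays, 3 biological replicates each of cells transfected with BAP1 siRNAs (si-BAP1), MBD5 siRNAs (si-MBD5) or a control (si-Control). The labels name the control si-Control in 1 place and control shRNA in another, and which was used is not settled. All groups are 1 cell line, and the labels give neither the siRNA sequences nor the time after transfection. The comparisons ask which RNAs differ after depletion of BAP1, a nuclear deubiquitinase, or of MBD5, a methyl-CpG-binding domain protein.

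The genes were chosen partly on measured values: the list was made with results of these 9 arrays already known. The difference of CD2AP between si-BAP1 and si-Control was among those results, and which values served in the choice is not recorded. All 3 comparisons are therefore treated as used in the choice: the members' values are given as a description, with no p-value, and counts of members past the threshold support nothing. Where a member is said to have passed, its limma adjusted p over all probe sets was under 0.05.

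Actin filaments grow at their barbed ends until the capping protein, a heterodimer of an alpha and a beta subunit, closes them. CD2AP and SH3KBP1 (also called CIN85) are adaptors with SH3 domains that bind capping protein through a short motif, bind the ubiquitin ligase CBL, and link membrane receptors and endocytosis to the actin cortex; CD2AP is best known from the kidney podocyte. Coronins bind filaments and act on the branching Arp2/3 complex and on cofilin, which severs filaments, while cortactin holds Arp2/3 branches together.

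The arrays were alike in median intensity, 36.9 to 38.2 per array, and arrays of 1 group correlated at 0.998 to 0.999 on the log2 scale. MBD5 lay near the bottom of the scale, and its brighter probe set read 6.20, 6.20 and 6.11 on the si-MBD5 arrays against 7.16, 7.06 and 6.90 on the si-Control arrays (p = 0.1 in a two-sided exact permutation test, which cannot go lower with 3 arrays a group). Its other probe set read 2.38, 2.24 and 2.38 against 1.98, 2.68 and 2.51, groups that overlapped (two-sided exact permutation p = 0.8). BAP1 itself was not analysed here, so the si-BAP1 label was not checked against its target. Of 6 biliary markers read, KRT7, KRT8, KRT18 and SOX9 were above the intensity filter, and KRT19 and EPCAM were below it. The filter does not separate cell types: 2 of 5 hepatocyte, 3 of 4 endothelial and 1 of 4 immune markers read were above it too. Among these, APOA1 (45.9) and VWF (44.0) lay near SOX9 (40.8). KRT8 was higher in si-BAP1 than in si-Control (log2 0.31, limma adjusted p = 3.6e-04). KRT7 was lower in si-BAP1 (log2 -0.15, limma adjusted p = 0.0295) and in si-MBD5 (log2 -0.19, limma adjusted p = 0.0155). KRT18 and SOX9 did not pass against si-Control in either knockdown, nor did KRT8 in si-MBD5. The 3'/5' ratio of the ACTB control probe sets, which reads RNA quality, was 10.8 to 11.4 in si-BAP1, 11.6 to 13.0 in si-MBD5 and 11.8 to 12.8 in si-Control. On every array the 3' probe set thus read at least 10.8 times the 5' one. All si-BAP1 ratios lay below those of the other groups (two-sided exact permutation p = 0.1 against si-Control). The part of this ratio in the results, and in differences between probe sets of 1 gene, was not tested. Among lists of other cell types, the summed intensity of 6 fibroblast markers was 141 to 151 in si-BAP1, 137 to 152 in si-MBD5 and 126 to 134 in si-Control, with 2 of the 6 above the filter and COL3A1 and LUM at 7.87 and 2.30. The markers that differed were PDGFRB, higher in si-BAP1 (log2 0.16, limma adjusted p = 0.0458) and in si-MBD5 (log2 0.24, limma adjusted p = 0.00805), and DCN, below the filter, whose si-BAP1 mean was 146% of si-Control with its arrays all above. The podocyte list summed to 524 to 568, 498 to 568 and 439 to 458 in the same order, with 2 of its 3 measured markers above the filter and nephrin (NPHS1) at 10.5. Most of that difference lay in 1 gene, PODXL (means of 412, 395 and 318), while SYNPO read 119, 131 and 119. The part of these lists in the results was not tested. In such bulk samples, fewer cells of a type and less RNA per cell cannot be told apart.

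Of the 29 member probe sets, 26 had a mean intensity above the filter, which was set at the 40th percentile over the table, 25.5, and were fitted. Nearest to that limit were 2 SH3KBP1 probe sets, 11724819_a_at inside it at 29.8 and 11724818_a_at outside it at 24.0. The 2 others below it read CORO1B, at 19.1 and 18.0. A log2 fold change here is the difference between 2 group means on the log2(intensity + 16) scale, given with its standard error (SE); the added 16 makes them smaller for dim probe sets, so the ratio of the plain group means is given as a percentage beside them.

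Against si-Control, 9 of the 26 fitted probe sets passed as lower and 2 as higher in si-BAP1. The 9 were all 5 of CORO1C, 2 of CD2AP and 2 of CAPZA1, and the 2 were of CTTN. Over all 29584 fitted probe sets 20.2% passed in this comparison, 8.79% as lower and 11.4% as higher. The median log2 fold change was -0.13 over the members and 0.0084 over all probe sets. In si-MBD5, 1 of 26 passed as lower (CAPZA1) and 2 as higher (CTTN), where 12.5% of all probe sets passed, 6.65% as lower and 5.9% as higher; the medians were -0.024 and 3.8e-04. Between the knockdowns, 7 passed as lower in si-BAP1 than in si-MBD5, all of CORO1C and CD2AP, and 1 of CAPZA2 as higher, where 7.69% of all probe sets passed, 3.16% as lower and 4.53% as higher. For 14 of 26 member probe sets the si-BAP1 and si-Control arrays did not overlap (3 higher, 11 lower), against 35.6% of all probe sets (20.5% higher, 15.1% lower). For si-MBD5 and si-Control this held for 5 of 26 (2 higher, 3 lower), against 27.8% (13.3% higher, 14.5% lower). For the 2 knockdowns it held for 11 of 26 (3 higher, 8 lower in si-BAP1), against 23.3% (14.7% higher, 8.61% lower). The 2 comparisons with si-Control share its 3 arrays.

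**Figure D1:**
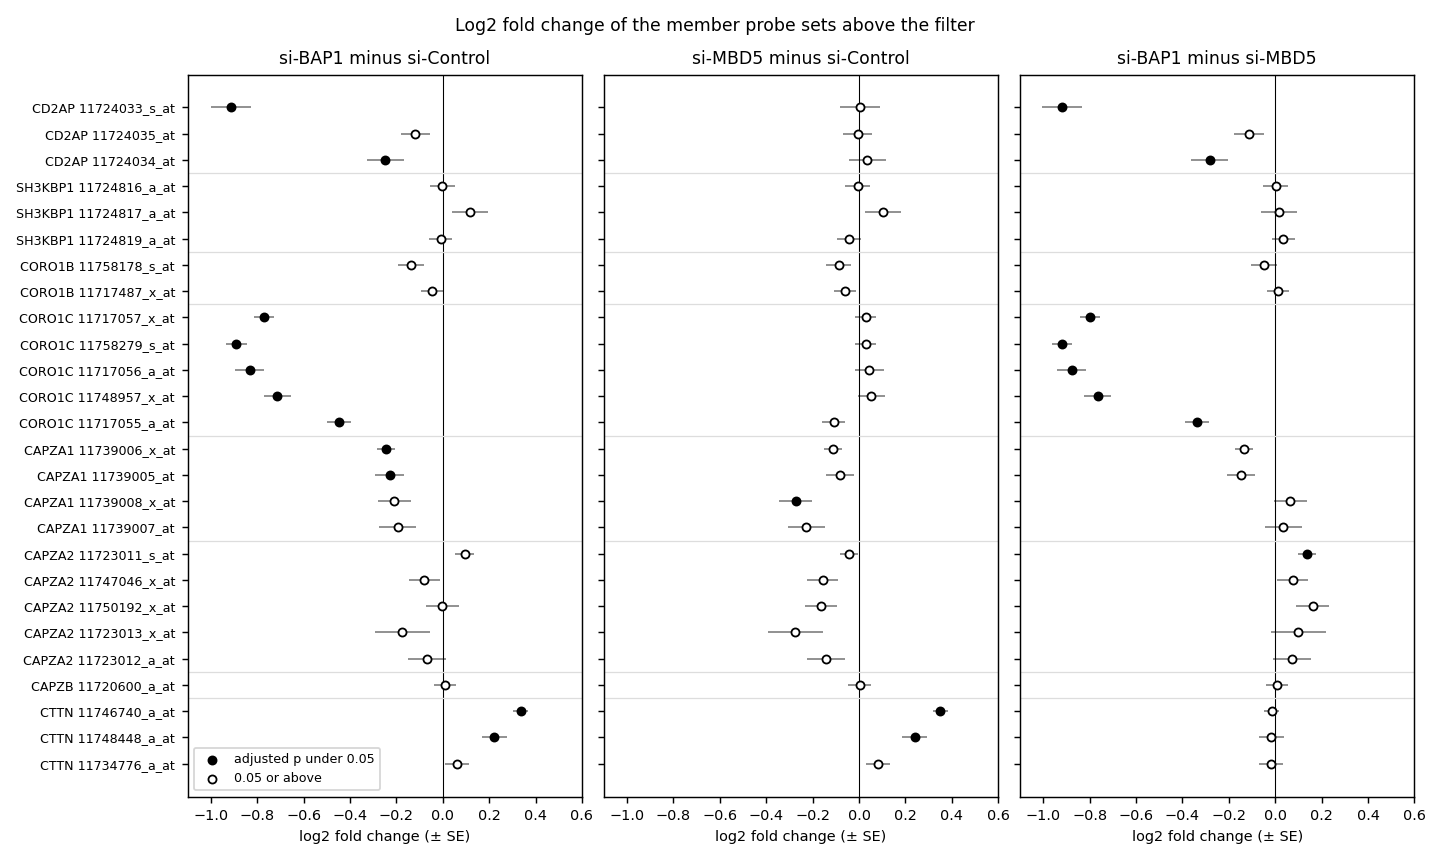
Log2 fold change (x axis, log2 units) with its SE (bars) for each of the 26 member probe sets above the filter (y axis), in the 3 comparisons. Filled points have an adjusted p under 0.05; the CORO1C probe sets lie left of zero in both panels with si-BAP1 and near zero in si-MBD5, and 2 CTTN probe sets lie right of zero in both knockdowns.

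CD2AP read lower in si-BAP1 on its brightest probe set and much less so on the others. The brightest, 11724033_s_at, read 121, 145 and 145 in si-BAP1, 297, 297 and 229 in si-MBD5, and 264, 272 and 279 in si-Control. All 3 si-BAP1 arrays lay below the other 6, while the si-MBD5 and si-Control arrays overlapped. The si-BAP1 mean (137 ± 14, SD, n = 3) was 50.5% of the si-Control mean (272 ± 7.5), a log2 fold change of -0.91 (SE 0.087), and 49.9% of the si-MBD5 mean (275 ± 39), a log2 fold change of -0.92 (SE 0.087). The si-MBD5 mean was 101% of si-Control (log2 0.0049, SE 0.087), with si-MBD5 replicate 3 the low array of its group.

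The probe set 11724034_at read 29.7, 35.7 and 43.6 in si-BAP1, 46.7, 51.1 and 44.2 in si-MBD5 and 48.2, 44.6 and 44.5 in si-Control. Its 3 si-BAP1 arrays again lay below the other 6, but si-BAP1 replicate 3, at 43.6, came close to the lowest of them, at 44.2. The log2 fold change in si-BAP1 was -0.25 (SE 0.080), a mean at 79.4% of si-Control; it passed, and lost that in 10 of 16 alternatives, among them the fits without si-BAP1 replicate 1, where it was -0.15, and without si-BAP1 replicate 2 or any 1 of the si-Control arrays. Against si-MBD5 it was -0.28 (SE 0.080), a call lost in 11 of 16 alternatives, among them the fits without si-BAP1 replicate 1 (-0.19), si-BAP1 replicate 2, si-MBD5 replicate 1 or si-MBD5 replicate 2. The probe set 11724035_at read 68.2, 60.3 and 69.8 in si-BAP1 against 72.8, 76.7 and 69.8 in si-Control, groups that touched at 69.8. Its log2 fold change of -0.12 (SE 0.063, 90.5% of si-Control) did not pass.

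The difference between the CD2AP probe sets was itself fitted, as the distance within each array between a probe set and the mean of the other probe sets of its gene. From si-Control to si-BAP1 that distance changed by log2 -0.73 (SE 0.10) for 11724033_s_at, and it passed here and in all 15 alternatives that held it. This probe set is treated as used in the choice of the genes, so these passes are a description and support nothing. From si-Control to si-MBD5 the distance changed by -0.0099 (SE 0.10). Of the 25 member probe sets with a partner, 5 passed this fit in si-BAP1, 0 in si-MBD5 and 2 between the knockdowns, where 4.1%, 1.78% and 0.792% of 21838 probe sets passed. Passes within 1 gene are not independent, as each probe set is set against the others. In si-BAP1, CD2AP 11724034_at passed with a change of 0.27 (SE 0.063) relative to the other CD2AP probe sets, although it read lower itself. That call was kept in 6 of 15 alternatives. The brightest CD2AP probe set stood at the 82.3rd percentile of mean intensity and the others at the 63.5th and 53.1st; the _s_at ending marks probe sets that can match more than 1 transcript or gene. Whether brightness or cross-matching plays a part in the difference between them was not tested.

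**Figure D2:**
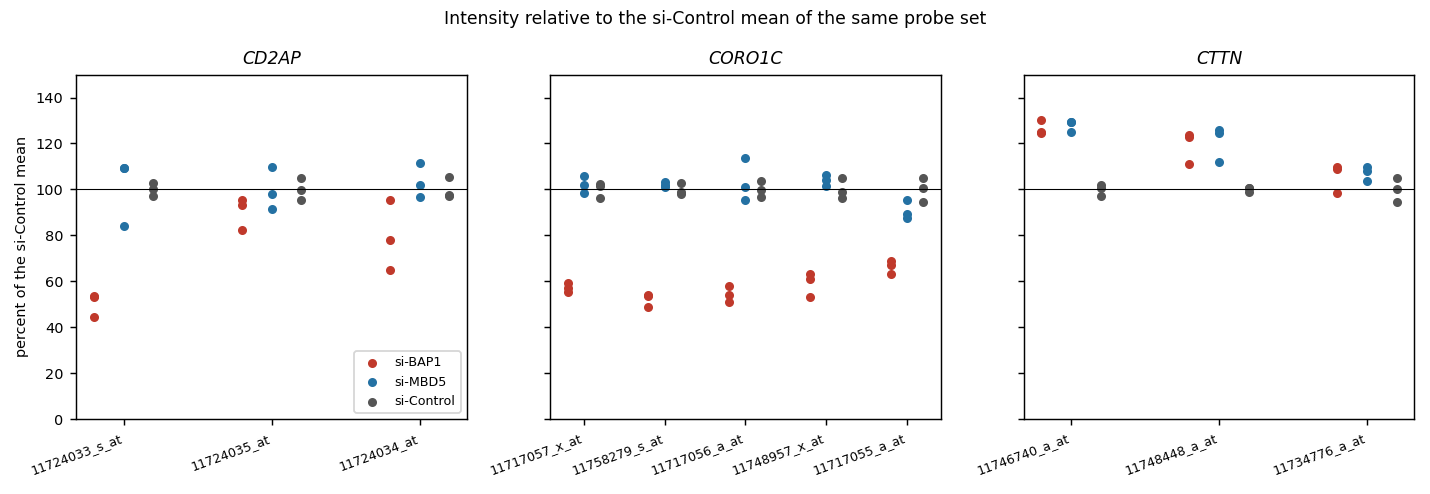
Intensity of each probe set of CD2AP, CORO1C and CTTN on each array, as a percentage of the si-Control mean of the same probe set (y axis); each point is 1 array, coloured by group. In si-BAP1 the brightest CD2AP probe set lay at 44.7% to 53.5% while 11724035_at lay at 82.5% to 95.6%, and the CORO1C probe sets lay between 48.9% and 68.8%.

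SH3KBP1, the other adaptor, read nearly alike in the 3 groups. Its brightest probe set, 11724816_a_at, read 103, 103 and 98.2 in si-BAP1, 105, 107 and 93.4 in si-MBD5 and 96.5, 106 and 103 in si-Control, with log2 fold changes of -0.0033 (SE 0.054) and -0.0053 (SE 0.054). The groups overlapped. The other 2 fitted probe sets had log2 fold changes of 0.12 (SE 0.078) and -0.0087 (SE 0.050) in si-BAP1 and of 0.10 (SE 0.078) and -0.043 (SE 0.050) in si-MBD5, and none of the 3 passed in any comparison. Below the filter, 11724818_a_at read 27.9, 25.4 and 23.4 in si-BAP1 and 27.8, 24.5 and 23.9 in si-MBD5, all above its si-Control values of 19.8, 21.0 and 22.3.

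Coronin 1C, a coronin found in most tissues, was lower in si-BAP1 on all 5 of its probe sets, and on each of them all 3 si-BAP1 arrays lay below all 6 other arrays. On 11758279_s_at it read 199, 220.5 and 217 in si-BAP1, 419, 414 and 411 in si-MBD5 and 399, 418 and 402 in si-Control. The si-BAP1 mean (212 ± 12) was 52.2% of si-Control (406 ± 10), a log2 fold change of -0.89 (SE 0.045), and 51.1% of si-MBD5 (415 ± 4.2), a log2 fold change of -0.92 (SE 0.045). On the brightest, 11717057_x_at, it read 290, 301 and 312 in si-BAP1, 517, 556 and 534 in si-MBD5 and 537, 532 and 506 in si-Control (log2 -0.77, SE 0.043, against si-Control).

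The probe set 11717056_a_at read 181, 206 and 192 in si-BAP1, 340, 405 and 360 in si-MBD5 and 368, 343 and 355 in si-Control. Probe sets ending in _a_at match transcripts of 1 gene, and this one, at log2 -0.83 (SE 0.062), fell within the range of the _x_at and _s_at probe sets of the gene. The other _a_at probe set, 11717055_a_at, at -0.45 (SE 0.051), lay outside that range. Whether cross-matching plays a part was not tested. The last of the bright ones, 11748957_x_at, had a log2 fold change of -0.71 (SE 0.058). All 5 probe sets passed in si-BAP1 here and in each alternative that tested them, 16 or 17 per probe set, and so did the difference from si-MBD5.

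The dimmest CORO1C probe set, 11717055_a_at, differed least: it read 40.7, 41.8 and 38.2 in si-BAP1, 54.1, 53.1 and 58.0 in si-MBD5 and 57.4, 61.0 and 63.6 in si-Control. Its si-BAP1 mean was 66.3% of si-Control (log2 -0.45, SE 0.051), and its distance to the other CORO1C probe sets changed by log2 0.35 (SE 0.062) from si-Control to si-BAP1. That change passed, also in 14 of 15 alternatives; with a constant of 1 in place of 16 it was 0.26 and did not pass. A second passing change of distance in this gene, -0.20 (SE 0.044) for 11758279_s_at, passed in 6 of 15 alternatives. In si-MBD5 the 5 probe sets had log2 fold changes of -0.11 to 0.054, and none passed.

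By profile over the 9 arrays CORO1C was the nearest gene to the brightest CD2AP probe set, with PCGF5 almost as near. Of 12433 genes read on their brightest probe set, it had the smallest root mean square difference from CD2AP 11724033_s_at, 0.13 log2 after each profile was centred on its mean. Next came the Polycomb subunit PCGF5 (0.13), whose means were 181, 307 and 341 in si-BAP1, si-MBD5 and si-Control. They were followed by the nuclear pore protein NUP43 (0.14), at 353, 552 and 583, the ferritin receptor SCARA5 (0.15), at 53.8, 102 and 114, and the mitotic kinase CDK1 (0.15), at 1292, 2108 and 2007. In all 5 the si-BAP1 arrays lay below the other 6. CAPZA1 ranked 479th by the same measure, CORO1B 2228th, SH3KBP1 4459th, CAPZB 6682nd, CAPZA2 10681st and CTTN 11787th. This ranking describes 9 arrays that fall into 3 groups, and it was made from a probe set that is treated as used in the choice of the genes.

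The brightest CD2AP probe set and the CORO1C probe sets were low in the same arrays. The 250 bases before the transcription starts of both genes are therefore shown, 5' to 3' on the strand of the gene, from RefSeq on GRCh38.p14. CD2AP has 1 start in that table (chr6:47477539-47477788, plus strand) and CORO1C has 3 (chr12:108731519-108731768, chr12:108730844-108731093 and chr12:108702999-108703248, minus strand). Capitals mark matches to the motifs searched for; 7 of the 8 members had an entry, and CTTN had none.
CD2AP: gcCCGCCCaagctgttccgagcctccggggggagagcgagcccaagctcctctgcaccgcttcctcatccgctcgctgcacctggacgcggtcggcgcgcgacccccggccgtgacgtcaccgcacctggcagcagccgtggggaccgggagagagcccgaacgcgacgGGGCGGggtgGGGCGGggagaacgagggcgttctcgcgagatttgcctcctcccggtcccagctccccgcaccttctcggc
CORO1C, first start: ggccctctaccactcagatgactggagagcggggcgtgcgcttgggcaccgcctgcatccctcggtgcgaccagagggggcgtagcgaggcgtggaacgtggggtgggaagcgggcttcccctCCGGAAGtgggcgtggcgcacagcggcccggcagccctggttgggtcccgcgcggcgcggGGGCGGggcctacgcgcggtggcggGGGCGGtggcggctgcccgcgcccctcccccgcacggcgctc
CORO1C, second start: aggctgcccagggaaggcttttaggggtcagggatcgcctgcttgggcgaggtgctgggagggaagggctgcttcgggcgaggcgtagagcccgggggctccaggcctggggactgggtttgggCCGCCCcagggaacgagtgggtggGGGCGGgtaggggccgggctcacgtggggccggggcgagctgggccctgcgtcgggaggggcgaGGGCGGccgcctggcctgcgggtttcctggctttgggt
CORO1C, last start: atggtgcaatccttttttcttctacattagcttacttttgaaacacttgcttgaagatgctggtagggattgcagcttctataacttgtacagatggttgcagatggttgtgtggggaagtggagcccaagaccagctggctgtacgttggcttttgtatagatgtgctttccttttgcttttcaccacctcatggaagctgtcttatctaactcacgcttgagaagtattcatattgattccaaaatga

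The motifs, on both strands, were the GC box GGGCGG, the CCAAT box CCAAT, the TATA box TATAAA, the AP-1 site TGANTCA, the ETS site CCGGAAG, the forkhead site GTAAACA, the YY1 site AANATGG and the CArG box. The GC box matched 3 times before CD2AP, 2 and 3 times before the first and second CORO1C starts and 0 times before the last; it is held by 42.6% of 35116 promoter windows of the same length. An ETS site matched 1 time, before the first CORO1C start, and is held by 8.52% of windows. The other motifs had no match in these 4 windows, which says only that those letters are not there: CCAAT is held by 32% of all windows, TATAAA by 10.7%, the AP-1 site by 6.57%, the forkhead site by 2.98%, the YY1 site by 11.6% and the CArG box by 1.16%. GC content was 73.6% before CD2AP and 77.6%, 74% and 41.6% before the 3 CORO1C starts. The GC box and the ETS site were not particular to these genes: before CORO1B they matched 5 times and 1 time. The GC box also matched 4 times before CAPZB and 1 time each before CAPZA1 and CAPZA2. It had 0 matches before each SH3KBP1 start. The ETS site had 0 matches before CAPZB, CAPZA1, CAPZA2 and SH3KBP1.

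CORO1B, a coronin of the leading edge of moving cells, differed little. Its brightest probe set, 11758178_s_at, read 347, 366 and 374 in si-BAP1, 348, 375 and 404 in si-MBD5 and 412, 410 and 378 in si-Control. The 3 si-BAP1 arrays lay below the 3 si-Control arrays, at most 374 against at least 378, and si-MBD5 overlapped both. The log2 fold changes were -0.14 (SE 0.055) in si-BAP1 and -0.088 (SE 0.055) in si-MBD5, and neither passed. The probe set 11717487_x_at had -0.047 (SE 0.047) and -0.059 (SE 0.047).

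CAPZA1, 1 of the alpha subunits of capping protein, read lower in both knockdowns by less than CORO1C did in si-BAP1. Its brightest probe set, 11739006_x_at, read 2152, 2393 and 2354 in si-BAP1, 2542, 2523 and 2504 in si-MBD5 and 2666, 2674 and 2843 in si-Control. The 3 groups did not overlap: si-BAP1 was lowest, at 84.3% of si-Control (log2 -0.25, SE 0.040), and si-MBD5 lay between, at 92.5% (log2 -0.11, SE 0.040). The first of these differences passed, also in all 16 alternatives, and the second did not.

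On 11739005_at the values were 1404, 1547 and 1557 in si-BAP1, 1753, 1690.3 and 1552 in si-MBD5 and 1639, 1726 and 1935 in si-Control. Its si-BAP1 difference (log2 -0.23, SE 0.061) passed, and without si-Control replicate 3, the highest control, it was -0.16 and did not pass; nor did it without si-BAP1 replicate 1 (-0.18). The dimmer 11739008_x_at read 158, 166 and 166 in si-MBD5 and 167, 174 and 175 in si-BAP1, against 180, 193 and 234 in si-Control, so both knockdowns lay below control. There si-MBD5 passed (log2 -0.27, SE 0.071), and without si-Control replicate 3 it was -0.17 and did not pass; nor did it without si-MBD5 replicate 1. The si-BAP1 value there was -0.21 (SE 0.071) and did not pass. On 11739007_at the values were -0.19 (SE 0.080) and -0.23 (SE 0.080), and neither passed.

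CAPZA2, the other alpha subunit measured, had 5 probe sets, and none passed against si-Control. In si-BAP1 the log2 fold changes ran from -0.17 to 0.094, and in si-MBD5 from -0.27 to -0.045. Only the brightest probe set was higher in si-BAP1. The others, 11747046_x_at (-0.080), 11750192_x_at (-0.0023), 11723013_x_at (-0.17) and 11723012_a_at (-0.067), had si-BAP1 arrays that overlapped si-Control. The brightest, 11723011_s_at, read 849, 875 and 848 in si-BAP1, 757, 797 and 778 in si-MBD5 and 767, 809 and 833 in si-Control. All 3 si-BAP1 arrays lay above the other 6. The difference between si-BAP1 and si-MBD5 (log2 0.14, SE 0.039) passed, a call lost in 10 of 16 alternatives, including the fits without any 1 si-BAP1 array, without si-MBD5 replicate 1 and without si-MBD5 replicate 3.

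CAPZB, the beta subunit that pairs with either alpha subunit, had 1 probe set. It read 156, 157 and 156 in si-BAP1, 145, 160.5 and 161 in si-MBD5 and 160.1, 149 and 156 in si-Control. The groups overlapped, with log2 fold changes of 0.010 (SE 0.048) and 0.0021 (SE 0.048). Its group means were 157 ± 0.12 in si-BAP1, 156 ± 8.9 in si-MBD5 and 155 ± 5.4 in si-Control.

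CTTN was the member that passed as higher against si-Control, and it did so in both knockdowns. On 11746740_a_at it read 1403, 1457 and 1394 in si-BAP1 and 1448, 1449 and 1403 in si-MBD5, against 1143, 1128 and 1090.0 in si-Control. All 6 knockdown arrays lay above all 3 control arrays, and the knockdowns overlapped with each other. The means of 1418 ± 34 and 1433 ± 26 were 127% and 128% of si-Control (1120.3 ± 27), log2 fold changes of 0.34 (SE 0.033) and 0.35 (SE 0.033). The log2 difference between the knockdowns was -0.015 (SE 0.033).

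The next CTTN probe set, 11748448_a_at, read 140.1, 141 and 126 in si-BAP1 and 127, 144 and 142 in si-MBD5, against 114, 113 and 115 in si-Control. Its log2 fold changes were 0.22 (SE 0.054) and 0.24 (SE 0.054), and both probe sets passed in both knockdowns, also in all 17 alternatives. The dimmest, 11734776_a_at, read 57.9 to 64.4 in si-BAP1, 60.9 to 64.5 in si-MBD5 and 55.6 to 61.7 in si-Control; its log2 fold changes of 0.063 and 0.080 (SE 0.051 each) did not pass. The distance of 11746740_a_at to the other CTTN probe sets changed by 0.19 (SE 0.047) in each knockdown; it passed in si-BAP1, a call kept in 7 of 16 alternatives, and it did not pass in si-MBD5.

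**Figure D3:**
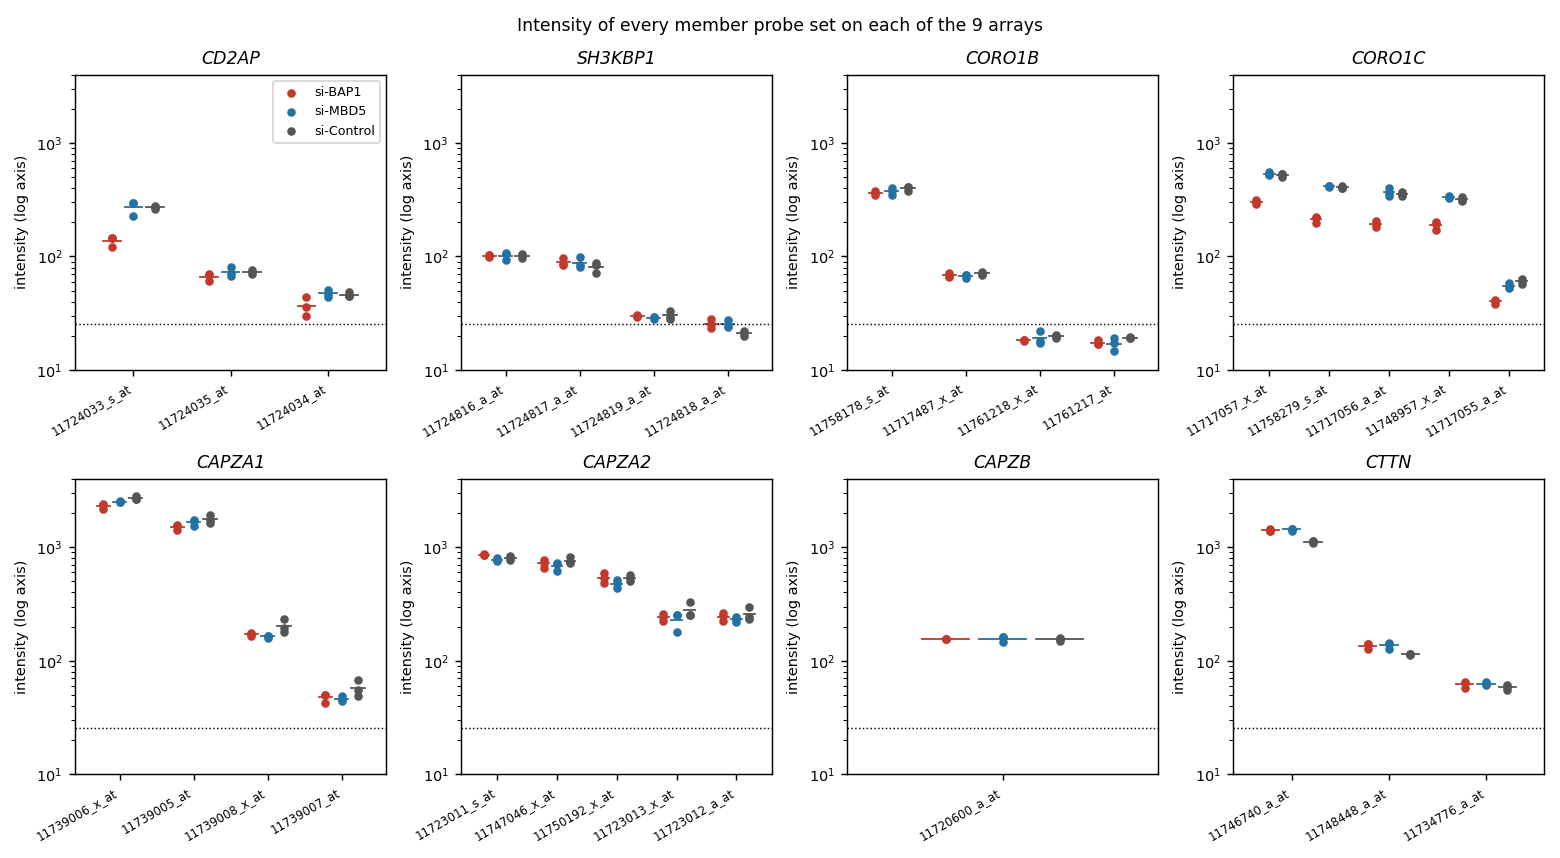
Intensity (y axis, log scale) of all 29 member probe sets on each of the 9 arrays, 1 panel per gene, with 3 points per group and a short line at the group mean; the dotted line is the filter at 25.5. The si-BAP1 points of all 5 CORO1C probe sets and of the brightest CD2AP probe set stand apart below the others, and both knockdowns stand above si-Control for the 2 brighter CTTN probe sets.

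Around these members, 6 lists of other actin genes held 95 genes, of which 86 were read and 74 were above the filter on their brightest probe set. In si-BAP1, 7 of 74 rose and 12 fell, 25.7% in all, close to the 22.3% of all 12434 genes that passed (11.7% higher, 10.6% lower). In si-MBD5, 3 rose and 9 fell, 16.2% in all, against 14.7% of all genes (6.68% higher, 8.03% lower). Between the knockdowns 3 were higher and 2 lower in si-BAP1, 6.76% in all, against 8.83% (4.99% higher, 3.84% lower). The median log2 fold changes over the 74 genes were -0.019, -0.032 and -0.0071.

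None of the 8 tested subunits of the Arp2/3 complex, which nucleates branched filaments, passed in si-BAP1, while 2 of 8 fell in si-MBD5. Those were the WD-repeat subunits ARPC1A (421 ± 17 against 492 ± 11, log2 -0.22, limma adjusted p = 0.0108) and ARPC1B (880 ± 38 against 1003 ± 18, log2 -0.19, limma adjusted p = 0.00516). Both also differed between the knockdowns (log2 0.28 and 0.15), the latter a call lost in 8 of 17 alternatives, among them the fits without any 1 si-BAP1 array, without si-MBD5 replicate 1 and without si-MBD5 replicate 3.

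Of 13 tested factors that switch Arp2/3 on, 1 rose and 3 fell in si-BAP1, and 1 rose and 3 fell in si-MBD5. NCKAP1, a scaffold of the WAVE complex, fell in si-BAP1 from 1974 ± 59 to 1413 ± 70 (log2 -0.48, SE 0.040, limma adjusted p = 3.3e-06). It read 1980 ± 65 in si-MBD5 (log2 0.0039), and the difference between the knockdowns passed (log2 -0.48). BRK1, the smallest WAVE complex subunit, rose in si-BAP1 (log2 0.25, limma adjusted p = 0.0162), a call lost without si-BAP1 replicate 2 (0.19), si-Control replicate 1 (0.20) or si-Control replicate 2 (0.22). N-WASP (WASL), an activator at membranes, fell in si-BAP1 (log2 -0.20) and in si-MBD5 (log2 -0.11, limma adjusted p = 0.0445), the latter a call lost in 12 of 16 alternatives, among them the fits without any 1 array of either group. JMY, a nucleator that also binds p300, rose in si-MBD5 (log2 0.29, limma adjusted p = 0.0024). BRK1 in si-MBD5 (0.13) and JMY in si-BAP1 (0.13) did not pass, nor did either gene pass between the knockdowns. WASHC4 fell in si-BAP1 (log2 -0.16, limma adjusted p = 0.0253) and in si-MBD5 (log2 -0.19, limma adjusted p = 0.0169). WASF2 fell in si-MBD5 (log2 -0.19, limma adjusted p = 0.0402), and its si-BAP1 value (-0.046) did not pass.

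Among 16 tested other capping proteins and regulators of capping protein, 0 rose and 5 fell in si-BAP1, and 0 rose and 2 fell in si-MBD5. The median log2 fold changes were -0.10 and -0.090. CAPG, a barbed-end capper of the gelsolin family, fell in si-BAP1 from 416 ± 32 to 314 ± 8.7 (log2 -0.38, limma adjusted p = 1.8e-04). Gelsolin (GSN), which severs and caps, fell in both, to 410 ± 2.7 in si-BAP1 and 341 ± 13 in si-MBD5 from 472 ± 23 (log2 -0.20 and -0.45). Twinfilin 2 (TWF2), which binds capping protein, fell in si-BAP1 (log2 -0.22), as did EPS8L2, a relative of the capping protein EPS8 (log2 -0.20). In si-MBD5, TWF2 (-0.12) and EPS8L2 (-0.18) did not pass, though their arrays all lay below si-Control. Neither gene passed between the knockdowns. The EPS8L2 call was lost without any 1 si-BAP1 array and without si-Control replicate 2 (-0.14).

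Of 6 other tested coronins and cortactin relatives, CORO6 passed in si-BAP1 (log2 -0.21, limma adjusted p = 0.0401), a call lost in 6 of 16 alternatives (without any 1 si-BAP1 array, without si-Control replicate 1, where it was -0.13, without si-Control replicate 2, and with no filter), and CORO2A fell in si-MBD5 (log2 -0.27, limma adjusted p = 0.0053). CORO6 in si-MBD5 (-0.16) and CORO2A in si-BAP1 (-0.15) did not pass, nor did either gene pass between the knockdowns. The cofilin pathway had 3 of 13 genes higher and 2 lower in si-BAP1, and 1 higher and 1 lower in si-MBD5. The cofilin phosphatases SSH1 (log2 0.23) and SSH2 (0.23) rose in si-BAP1, and SSH2 rose in si-MBD5 (0.21). SSH1 in si-MBD5 (0.15) did not pass, nor did either phosphatase pass between the knockdowns. CFL1, the brightest gene of the list, was also higher in si-BAP1 (5924 ± 85 against 5641 ± 29, log2 0.070, limma adjusted p = 0.0323). Its si-MBD5 value (0.051) did not pass, and in both knockdowns its arrays all lay above si-Control. Muscle cofilin (CFL2) fell in both (log2 -0.14 and -0.20), and destrin (DSTN), a cofilin relative, fell in si-BAP1 (log2 -0.12), a call lost with no intensity trend. The CFL2 call in si-BAP1 was lost without si-BAP1 replicate 1, si-BAP1 replicate 3 or si-Control replicate 1, and the SSH2 call in si-MBD5 without si-Control replicate 1, si-Control replicate 2 or si-MBD5 replicate 2.

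Of 18 tested partners of the adaptors and genes of endocytosis, 3 rose and 1 fell in si-BAP1, and 1 rose in si-MBD5. The growth factor receptor EGFR rose in both, from 424 ± 0.77 to 529 ± 17 and 505 ± 7.0 (log2 0.31 and 0.24). Endophilin A1 (SH3GL2), which binds the same adaptors, rose in si-BAP1 (log2 0.36, limma adjusted p = 6.3e-04), as did dynamin 3 (DNM3, 0.22, a call lost without si-BAP1 replicate 1, si-BAP1 replicate 2 or si-Control replicate 1), while the ARF GTPase regulator ASAP2 fell (log2 -0.30). In si-MBD5, SH3GL2 (0.16), DNM3 (0.074) and ASAP2 (-0.20) did not pass, nor did any of them pass between the knockdowns. The partners CBL (log2 -0.10) and CBLB (-0.12) did not pass in si-BAP1. CD2, the T cell surface protein after which CD2AP is named, was below the filter at 21.3.

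**Figure D4:**
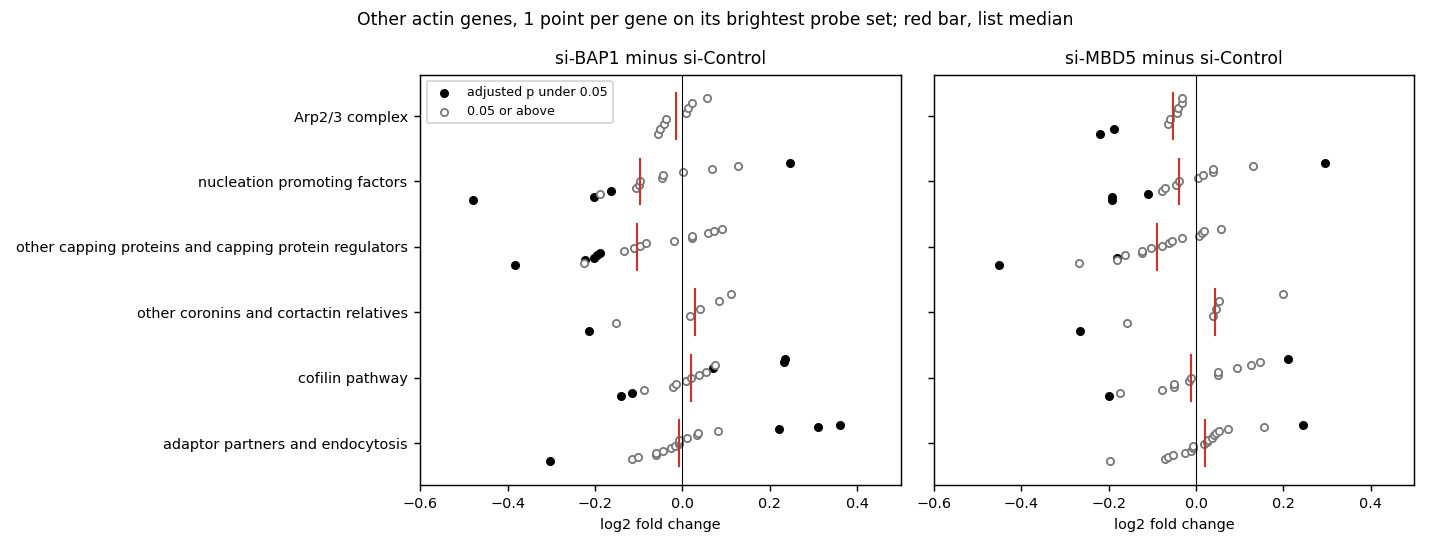
Log2 fold change (x axis) of 74 other genes in 6 lists (y axis), 1 point per gene on its brightest probe set, for si-BAP1 and si-MBD5 against si-Control. The lists hold actin genes and, in 1 list, adaptor partners and genes of endocytosis. Filled points have an adjusted p under 0.05 and the red bar is the list median; NCKAP1, at -0.48, is the lowest point in si-BAP1 and GSN, at -0.45, the lowest in si-MBD5.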

How the data were processed

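Per the labels' protocols, 6 ug of Trizol-extracted RNA per sample was labelled as cRNA and hybridised to Affymetrix arrays. The deposited value of a probe set on an array is an intensity, not log-transformed. The submitters' processing notes name MAS5; its version and scaling are not given in the sources used here. No further scaling was applied, and the table has no detection calls. Of 49293 probe sets other than 102 controls, those above the 40th percentile of mean intensity (29584) were kept, and log2(intensity + 16) was fitted in limma 3.58.1 (R 4.3.3) with 3 group means over 9 arrays (6 residual degrees of freedom), empirical Bayes moderation and an intensity trend. P-values were adjusted by Benjamini-Hochberg over all of these probe sets, with a threshold of 0.05. A second limma fit took the within-array difference between a probe set and the mean of the other probe sets of its gene, over 21838 probe sets of 7077 genes. A gene with 2 probe sets enters it as a mirrored pair, and in a gene with more the changes of its probe sets also depend on each other. Both fits were tested on simulated data. Symbols came from the platform's annotation of 2021, updated by gene identifier (44967 of 44988 matched).

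The members and gene lists were chosen with earlier results of these data known. The genes named are all members, up to 4 passing genes per list by size, and the 5 nearest profiles to CD2AP. CFL1, WASHC4, WASF2, CBL, CBLB and CD2 were named besides. The calls of CFL1, WASHC4 and WASF2 were not recomputed in the alternatives. P-values measure the spread between samples of 1 cell line, and the number of arrays limits the precision; the median SD within groups was 0.063 log2. The replicate numbers did not pair the arrays: deviations of same-numbered arrays correlated at -0.40 to 0.43 (9 pairs). Arrays with other numbers correlated at -0.53 to 0.46. Examples are si-BAP1 replicate 1 with si-MBD5 replicate 3 (0.46) and si-BAP1 replicate 2 with si-Control replicate 3 (0.38). Whether samples of different groups share a source of variation was not tested, and the fits do not model 1. Alternatives were quantile normalization or median centring, constants of 1 or 64, a filter at the 60th percentile or none, the replicate block, no intensity trend (first fit only), array weights, only the 2 groups compared, no _x_at and _s_at probe sets, and each array left out. Python 3.11.15 and matplotlib 3.10.9 drew the plots.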

Additional observations from a re-analysis of the deposited data

How the results depend on the processing

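Of the 22 member log2 fold changes past the threshold over the 3 comparisons, 17 kept their call and direction in every alternative that tested them; the other 5 were 11724034_at of CD2AP (against si-Control, and against si-MBD5, where 5 of 16 alternatives kept it), 11739005_at and 11739008_x_at of CAPZA1 and 11723011_s_at of CAPZA2, as described above. None turned direction. Among 1278 recomputed member values, 46 had the other sign; all were short of the threshold on both sides and at most 0.067 in size. Without _x_at and _s_at probe sets, which removes 12 of the 26 member probe sets tested, 6 members passed in si-BAP1 (11 with all) and 3 between the knockdowns (8 with all). Leaving out 1 array gave 9 to 12 passing members in si-BAP1, 2 to 4 in si-MBD5 and 6 to 7 between the knockdowns. The count of members that differ from the other probe sets of their gene was less stable. In si-BAP1 it was 5, and 1 with a constant of 1, 3 with a filter at the 60th percentile, 2 without _x_at and _s_at probe sets, and 2 to 3 with 1 array left out. In si-MBD5 it was 0, and 2 with a constant of 64, 1 with quantile normalization, 1 with array weights, and 0 with any array left out. Between the knockdowns it was 2, and 5 with a constant of 64, 4 with array weights, and 1 to 3 with 1 array left out. The cause of these changes was not tested.

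With the replicate block the passing members were 11 in si-BAP1, 3 in si-MBD5 and 6 between the knockdowns, and those that differ from their gene's other probe sets were 2, 0 and 2. In deviations from the group means, 3 of 9 arrays correlated best with an array of their own number.

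Over all probe sets, 5984, 3711 and 2275 passed in the 3 comparisons; array weights gave 9380 and 5818 for the knockdowns against si-Control, and dropping _x_at and _s_at probe sets, which leaves fewer to test, gave 3716, 2298 and 1396. Without si-Control replicate 2, si-MBD5 had 2266, and with 1 si-BAP1 array or si-MBD5 replicate 1 left out the knockdowns differed in 1186 to 1460. Scaling moved the median of all log2 fold changes by at most 0.012. In that range the probe sets lower in si-BAP1 outnumbered those higher without si-BAP1 replicate 2 (781 against 657) and without si-MBD5 replicate 1 (614 against 572), as they did not with all arrays (934 against 1341). The call of CAPG between the knockdowns was lost without si-BAP1 replicate 2 or 3 and without si-MBD5 replicate 1 or 3. The 3 member probe sets below the filter were tested in no comparison of the report.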

Other observations

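Some intensities repeat exactly between arrays. The CAPZA2 probe set 11723013_x_at reads 251 on 4 arrays, 2 of si-Control and 2 of si-MBD5, and the SH3KBP1 probe set 11724816_a_at reads 103 on 3 arrays, 2 of si-BAP1 and 1 of si-Control, equal to all digits deposited. Across the table, no pair of arrays shared more than 5.49% of its values. The 1 probe set annotated to both PTPRCAP and CORO1B, 11718849_at, was not counted as a member; it read 28.3 ± 0.94 in si-BAP1, 30.3 ± 5.0 in si-MBD5 and 29.0 ± 2.7 in si-Control (n = 3 each), and it did not pass in any comparison.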
